A study of Mus musculus with 2 samples.

Results

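The genes described here are 9 genes of skeletal muscle measured in RNA from dissected mouse hindbrain: the myogenic regulators Myod1, Myog and Myf5, and the sarcomere genes Acta1, Actc1, Myh3, Myl1, Tnnc1 and Ttn. They were picked by symbol because most of them had been seen to differ between the study's pools, so the pool differences of these 9 are given as a description, with no test. All 9 were found among 43346 Ensembl genes in the deposited gene tables. The samples were hindbrains of healthy embryos of strain B6NCrl at embryonic day 11.5, of both sexes and with no treatment or engineered allele in the labels. Pool 1 combined 109 embryos and pool 2 combined 88, and the labels call them biological replicates of 1 tissue. Each pool gave 1 library, made from 10 ng of RNA over 200 nt with ERCC spike-ins, which are synthetic RNAs added in known amounts. Any animal-to-animal spread is averaged within a pool, and with 1 library for each pool a difference between them has no replicate check.

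Skeletal muscle forms from mesoderm beside the neural tube and in the head. The basic helix-loop-helix factors Myf5 and Myod1 commit cells to the muscle fate, and Myog then drives the committed myoblasts to differentiate and fuse. Differentiated cells assemble sarcomeres, in which actin thin filaments carrying troponin and tropomyosin slide past myosin thick filaments along the elastic protein titin. The neural tube itself does not make muscle, although the hindbrain lies next to somites and to the mesoderm of the branchial arches.

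All 9 genes had reads in both pools and all 9 had a higher level in pool 1, by TPM (a transcript level scaled for gene length and library size). Their TPM summed to 86.0 in pool 1 and 41.2 in pool 2, which was 2.09 times as much in pool 1. The 3 regulators summed to 12.8 TPM in pool 1 and 5.32 TPM in pool 2, and the 6 sarcomere genes to 73.2 TPM in pool 1 and 35.8 TPM in pool 2. Ttn stood apart, with nearly the same level in the pools. The median of all genes averaging 1 TPM or more was itself higher in pool 1, by 0.11 in log2 of TPM + 1. These levels and sums include that shift. In tissue RNA, fewer muscle cells and less muscle RNA per cell cannot be told apart.

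Depth was 45340440 expected counts in pool 1 and 41261544 in pool 2, of which the spike-ins took 7.41% in pool 1 and 10.7% in pool 2. Ratios between the pools are log2 of TPM + 1 in pool 1 over that in pool 2, minus the median of the 14942 genes that averaged 1 TPM or more, so a positive ratio is higher in pool 1 and 0 is the median gene. That median was 0.11 before it was subtracted. Setting the spike-ins at 0 instead would add 0.54 to every ratio. A gene past 1.5-fold (0.58 on this scale) is called higher or lower. Of all genes tested, 1.63% were called higher in pool 1 and 4.35% lower. Beside each ratio stands the ratio of the expected counts, again over that of the median gene, with a 95% Clopper-Pearson interval that covers counting error only.

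Of the 9 genes, 8 reached a mean TPM of 1, and 5 of these (Myod1, Myog, Acta1, Actc1 and Tnnc1) were called higher in pool 1 and 0 lower. At 2-fold on this scale, 1 gene (Actc1) was past the threshold, where 91 of all 14942 tested genes were higher. The count ratios, which carry no pseudocount, were past 2 for Myod1 (2.70), Myog (2.23), Actc1 (2.08) and Acta1 (2.05). Among all tested genes with as many reads as the 9 (112 to 2075 over both libraries), 1.64% were called higher at 1.5-fold. Myh3 and Myl1 lay just under the threshold, with ratios of 0.57 and 0.53. Ttn lay at the median gene, and Myf5 averaged 0.975 TPM and so was not tested. The counting interval of the count ratio lay above 1 for 7 of the 8 tested genes. The same held for 27.1% of all tested genes, and for 25.6% it lay below 1. Since the 9 were chosen for this difference, these counts describe them and support nothing further.

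**Figure D1:**
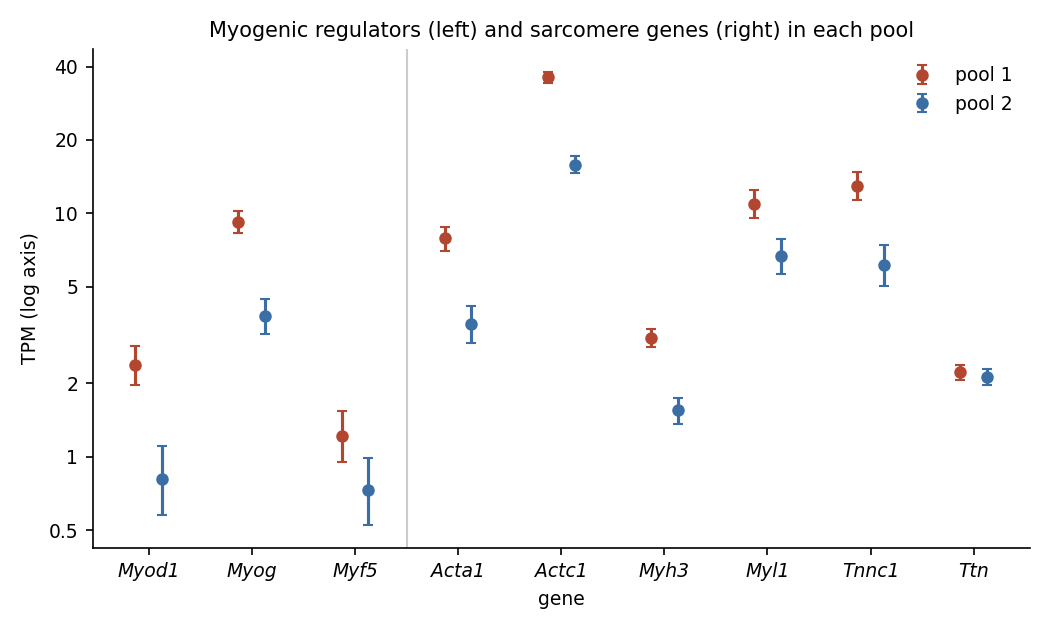
Level (TPM, log axis) of the 9 muscle genes in pool 1 and pool 2, 1 library each, with bars for the exact 95% Poisson interval of the expected count scaled to TPM, which covers counting error only. Actc1 was highest in both pools, at 36.1 TPM in pool 1 and 15.8 TPM in pool 2, and Ttn was nearly level.

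Myod1 (ENSMUSG00000009471.3, chr7:46376474-46379099, plus strand, mm10), which can convert other cells to muscle, had 2.38 TPM in pool 1 and 0.81 TPM in pool 2, from 123 and 40 expected counts. It was among the lowest of the 9 in level, and pool 1 was the higher. Its ratio was 0.79, and its count ratio was 2.70 (95% counting interval 1.88 to 3.96). Of the tested genes, 0.85% had a higher ratio than Myod1.

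Myog (ENSMUSG00000026459.5, chr1:134289989-134292548, plus strand), whose product myogenin is needed for myoblasts to differentiate, had 9.21 TPM in pool 1 and 3.78 TPM in pool 2. It was the most abundant regulator in both pools, and pool 1 was again the higher. Its expected counts were 378 in pool 1 and 149 in pool 2, the count ratio was 2.23 (1.84 to 2.71), and the ratio on the log2 scale was 0.99.

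Myf5 (ENSMUSG00000000435.1, chr10:107482908-107486134, minus strand), the earliest of these factors to appear in the mouse embryo, had 1.22 TPM in pool 1 and 0.73 TPM in pool 2. It rested on 71 reads in pool 1 and 41 in pool 2, and by TPM it was the lowest of the 9 in both pools. In pool 2 Myf5 was not clear of Myod1, whose counting interval overlapped its own. Its ratio was 0.25, the lowest of the regulators, and its count ratio of 1.52 had a counting interval of 1.02 to 2.29. The counting intervals of Myf5 and Myod1 count ratios overlapped. The deposited intervals around the TPM of Myf5 also overlapped between the pools, 0.93 to 1.49 in pool 1 and 0.52 to 0.96 in pool 2.

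The sequence just upstream of a start site is where these regulators and their partners can act, so the promoter of Myog is shown for the differentiation step, and those of the alpha-actins for the genes of the contractile end product. Each run is 300 bases from RefSeq (GRCm38.p6), 250 before the annotated start and 50 after it, read 5′ to 3′ on the gene's strand. Capitals mark matches, on either strand, to the motifs that follow. The E-box is CANNTG (read by the MyoD family), with its subset CAGCTG. For MEF2, a simplified form of the motif of Mef2 factors was searched: CTA, any 4 bases and TAG. The MEF3 motif is TCAGGTT. The CArG box (read by serum response factor) is CC, 6 bases that are A or T, and GG. TATAAA is marked as well. Of the 9 genes, 8 had an entry in the table, and Myod1 is named only. The windows below are chr1:134289754-134290053 for Myog, chr8:123894726-123895025 for Acta1 and chr2:114052826-114053125 for Actc1.
Myog: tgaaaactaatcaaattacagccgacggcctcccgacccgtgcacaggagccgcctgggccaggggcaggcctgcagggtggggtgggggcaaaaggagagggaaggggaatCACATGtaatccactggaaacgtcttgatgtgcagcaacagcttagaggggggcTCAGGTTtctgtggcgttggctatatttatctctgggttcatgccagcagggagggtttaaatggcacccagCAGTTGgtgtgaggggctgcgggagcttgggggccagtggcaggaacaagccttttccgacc
Acta1: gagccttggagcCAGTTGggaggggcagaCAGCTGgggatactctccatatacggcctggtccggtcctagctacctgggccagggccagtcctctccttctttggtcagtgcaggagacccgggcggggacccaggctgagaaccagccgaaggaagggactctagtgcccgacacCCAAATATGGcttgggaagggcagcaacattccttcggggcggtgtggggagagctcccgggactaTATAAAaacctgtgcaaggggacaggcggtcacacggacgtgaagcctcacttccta
Actc1: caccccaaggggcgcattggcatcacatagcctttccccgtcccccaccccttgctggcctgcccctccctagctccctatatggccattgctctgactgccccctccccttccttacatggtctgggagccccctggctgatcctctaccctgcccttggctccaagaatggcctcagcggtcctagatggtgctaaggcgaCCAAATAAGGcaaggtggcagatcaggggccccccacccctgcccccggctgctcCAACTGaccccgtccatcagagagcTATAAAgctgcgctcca

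In the Myog window, E-boxes began 138 and 12 bases before the start and a MEF3 match 84 bases before it. In the Acta1 window, a CArG box began 73 bases before the start, and E-boxes began 238 and 221 bases before it, the nearer one reading CAGCTG. The Actc1 window held a CArG box 47 bases before the start, with an E-box 8 and TATAAA 33 bases after it. This window lies inside the GENCODE span of Actc1 (chr2:114047282-114053548), so the RefSeq start used differs from the start of that span. Positions before and after the start hold for the RefSeq start only. Over the 8 windows, 7 held an E-box, against 72.3% of all 32851 promoters in the table. CAGCTG was in 2 of 8 (Acta1 and Myl1), against 16.3% of all promoters. The MEF2 motif in the form searched was in 2 of 8 (Myf5 and Ttn), against 3.69%, and the MEF3 motif in 1 of 8, against 4.07%. That MEF2 form allows any 4 bases in its core and requires TAG at its end. A match therefore need not be a site of Mef2 factors, and sites spelled otherwise are left unmarked, also in the Myog window. A CArG box was in 2 of 8, against 1.63%, and TATAAA in 5 of 8, against 13.6%. These matches describe letters in a window and say nothing of binding.

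Acta1 (ENSMUSG00000031972.4, chr8:123891769-123894751, minus strand), the alpha-actin of adult skeletal muscle, had 7.88 TPM in pool 1 and 3.50 TPM in pool 2. Its 309 and 132 expected counts gave a count ratio of 2.05 (1.67 to 2.54), with a ratio of 0.87 on the log2 scale. Actc1 (ENSMUSG00000068614.7, chr2:114047282-114053548, minus strand), the alpha-actin of heart that early skeletal muscle also makes in quantity, had 36.13 TPM in pool 1 and 15.84 TPM in pool 2. It was the most abundant of the 9 in both pools and took 42.0% of their summed TPM in pool 1 and 38.5% in pool 2. Its 1460 and 615 expected counts gave a count ratio of 2.08 (1.90 to 2.29), and its log2 ratio of 1.03 was the highest of the 9. Of all tested genes, 0.57% had a higher one. The place of Actc1 among the 9 depends on the scale. By count ratio, Myod1 (2.70) and Myog (2.23) were above it. With a pseudocount of 0.1, Myod1 had the highest log2 ratio, 1.33 against 1.07 for Actc1.

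These alpha-actins encode nearly the same protein, so it matters whether reads could be assigned to one or the other. Over 1131 coding bases the genes differed at 155, an identity of 86.3%, and the longest run without a difference was 29 bases. The first 150 coding bases are shown, from the GENCODE M21 transcripts, with the 21 differences between the genes in capitals.
Acta1: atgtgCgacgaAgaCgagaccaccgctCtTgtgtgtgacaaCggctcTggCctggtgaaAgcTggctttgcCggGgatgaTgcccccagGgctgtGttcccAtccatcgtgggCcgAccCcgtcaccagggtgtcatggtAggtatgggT
Actc1: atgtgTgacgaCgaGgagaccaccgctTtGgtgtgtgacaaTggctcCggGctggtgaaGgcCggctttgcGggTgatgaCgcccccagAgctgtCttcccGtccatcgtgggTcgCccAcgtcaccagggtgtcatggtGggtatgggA

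No stretch of 100 bases in either transcript was found in a transcript of another gene, and the posterior SD of the count, which measures how uncertain the assignment of reads was, was 0 for both genes in both pools. The length of 100 is that implied by the deposited tables, in which effective length is 99 nt under the length. The same check found no shared 100-base stretch for Myod1, Myog, Myf5, Tnnc1 or the long Ttn transcript. Myh3 shared 68 of 5932 stretches (1.15%), with Myh13, which is listed at 0 in both pools. In Myl1 the leading transcript shared 92 of 704 (13.1%), with the pseudogene Mylf-ps, which was not analysed here. The posterior SD was 0 for 8 of the 9 genes, and for Myh3 it was 0.62 counts in pool 1 and 0.63 in pool 2.

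Myh3 (ENSMUSG00000020908.10, chr11:67078300-67102291, plus strand), the embryonic myosin heavy chain, had 3.07 TPM in pool 1 and 1.55 TPM in pool 2. The level was low but the gene is long, so it rested on 535 and 260 expected counts. Its count ratio was 1.81 (1.55 to 2.10). By counts Myh3 was therefore past 1.5-fold, while its log2 ratio of 0.57 on the TPM + 1 scale, which understates differences of low genes, was not.

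Myl1 (ENSMUSG00000061816.11, chr1:66924295-66945404, minus strand), an alkali light chain of fast myosin, had 10.94 TPM in pool 1 and 6.69 TPM in pool 2, from 238 and 146 expected counts. The count ratio was 1.43 (1.16 to 1.77), the lowest among the 8 genes other than Ttn. The gene makes a short and a long light chain from separate promoters, and the transcripts were not apart to the same degree. The 803-nt transcript Myl1-202 had 8.72 TPM in pool 1 and 4.42 TPM in pool 2. The 1082-nt transcript Myl1-201 had 1.83 TPM in pool 1 and 1.85 TPM in pool 2. Myl1-202 thus made up 79.7% of the gene's TPM in pool 1 and 66.1% in pool 2. The split was itself estimated: in pool 1, Myl1-201 had 52.9 expected counts with a posterior SD of 13.1, and Myl1-202 had 181 with a posterior SD of 13.2. The gene's effective length was 740 nt in pool 1 and 772 nt in pool 2.

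Tnnc1 (ENSMUSG00000091898.4, chr14:31208312-31211729, plus strand), the calcium-binding troponin of slow muscle and heart, had 12.97 TPM in pool 1 and 6.14 TPM in pool 2. Its 237 and 108 expected counts gave a count ratio of 1.93 (1.53 to 2.44) and a log2 ratio of 0.86. Nearly all of it was the 721-nt transcript Tnnc1-202, at 12.86 TPM in pool 1 and 6.14 TPM in pool 2. The gene overlaps Nisch on the other strand, which had 188.3 TPM in pool 1 and 204.9 TPM in pool 2. The sources used here do not say whether counting used strand. The posterior SD of the Tnnc1 count was 0 in both pools, and whether reads of the pair were separable was not tested further. Acta1 likewise overlaps Gm20388, at 10.67 TPM in pool 1 and 9.89 TPM in pool 2.

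Ttn (ENSMUSG00000051747.10, chr2:76703980-76982547, minus strand) encodes titin, the molecular spring of the sarcomere. It had 2.22 TPM in pool 1 and 2.12 TPM in pool 2, from 800 and 675 expected counts. Its log2 ratio was -0.06, and 61.3% of tested genes had a higher one. The count ratio of 1.04 had a counting interval of 0.94 to 1.15. That interval overlapped the one of Myf5 and lay below those of the other genes, just below in the case of Myl1. The deposited interval of Ttn does not hold its own TPM: it surrounds the posterior mean, 3.27 TPM in pool 1 and 3.14 TPM in pool 2, and ran between 2.41 and 4.19 TPM in pool 1. The effective length that the authors' tool gave Ttn also differed, 12242 nt in pool 1 and 11255 nt in pool 2.

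Of the 25 annotated Ttn transcripts, 15 had a level above 0. By TPM the leading one was the 2159-nt Ttn-215, at 1.29 TPM in pool 1 and 1.08 TPM in pool 2. By reads it was the 81843-nt Ttn-201, with 377 expected counts in pool 1 and 361 in pool 2 at 0.16 TPM in each. The gene's TPM is therefore carried by a short transcript and its count by a long one. For Myh3, the split between Myh3-202, at 3.07 TPM in pool 1 and 1.09 TPM in pool 2, and Myh3-201, at 0 and 0.44 TPM, was uncertain: their posterior SDs were 80.9 and 61.4 counts in pool 1. Myod1, Myog, Myf5 and Acta1 had a single transcript each.

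**Figure D2:**
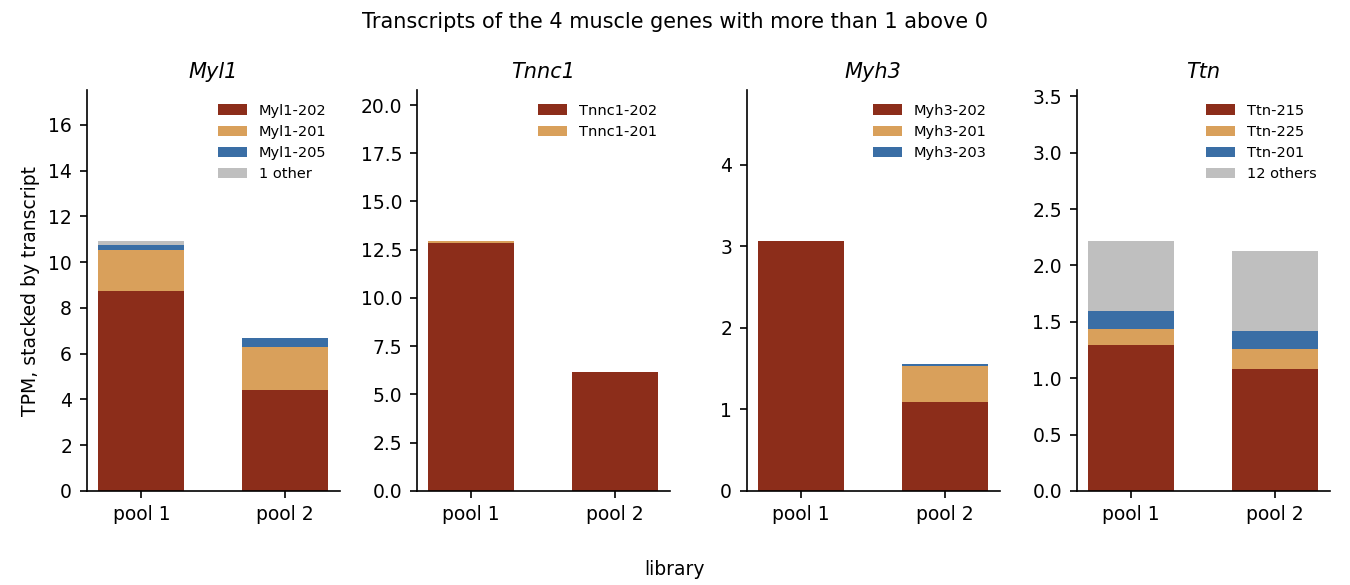
Level (TPM, bars from 0, stacked by transcript) of the transcripts of Myl1, Tnnc1, Myh3 and Ttn in pool 1 and pool 2, 1 library each. Myl1-201 is as tall in both pools, at 1.83 TPM in pool 1 and 1.85 TPM in pool 2, while Myl1-202 is taller in pool 1.

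The order of levels was much alike in the pools. In pool 1 it ran Actc1, Tnnc1, Myl1, Myog, Acta1, Myh3, Myod1, Ttn and Myf5, and neighbours from Tnnc1 to Acta1 and from Myh3 to Ttn had counting intervals that overlapped. In pool 2 it ran Actc1, Myl1, Tnnc1, Myog, Acta1, Ttn, Myh3, Myod1 and Myf5, with overlap between Myl1 and Tnnc1, Myog and Acta1, and Myod1 and Myf5. Ttn moved most in the order: it took 2.58% of the summed TPM of the 9 in pool 1 and 5.15% in pool 2.

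**Figure D3:**
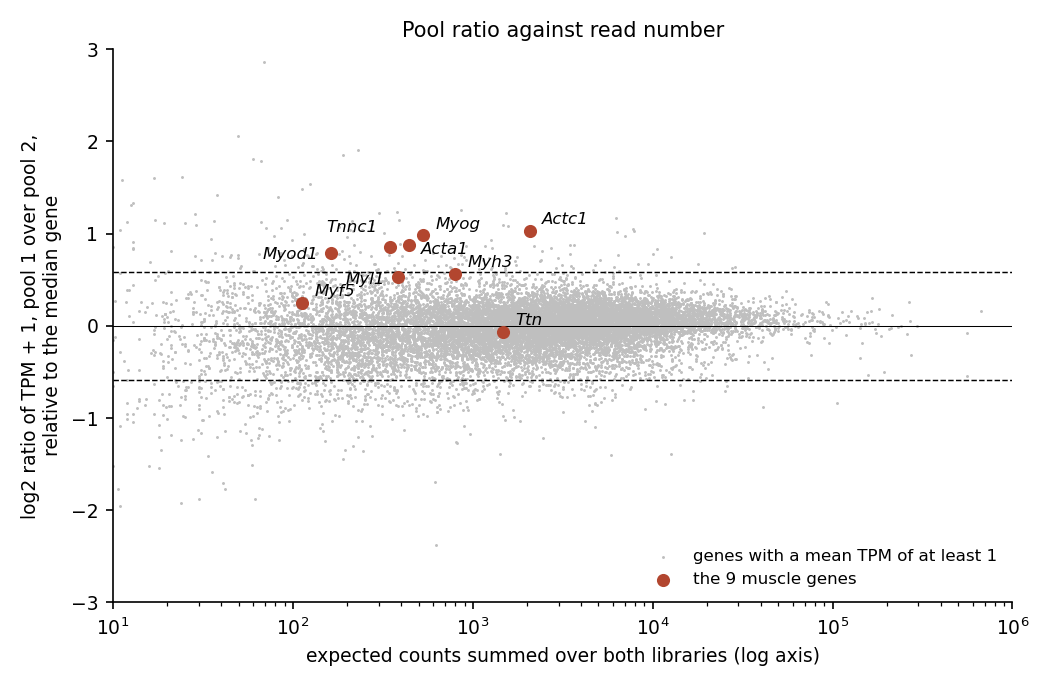
Pool ratio (log2 of TPM + 1, pool 1 over pool 2, relative to the median gene) against the expected counts summed over both libraries (log axis), for genes that averaged 1 TPM or more (grey) and the 9 muscle genes (red). Dashed lines mark 1.5-fold, the highest of the 9 is Actc1 at 1.03 and the lowest Ttn at -0.06, and Myf5 is drawn although it is under the filter.

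Other genes of the muscle programme were read from lists holding 87 genes, of which 54 reached a mean TPM of 1. In pool 1, 6 were called higher and 0 lower, against the 1.63% and 4.35% of all tested genes given above. Their median ratio was 0.14, where that of all tested genes is 0, and 40 of the 54 were above 0. The count of 6 was 3 in FPKM. With the spike-ins set at 0, which moves every gene up alike, it was 35 of the 54 (64.8%), where 41% of all tested genes were called higher. The counting interval lay above 1 for 26 of the 54 and below 1 for 6, against 27.1% and 25.6% of all tested genes. These lists were drawn up with earlier results of the same libraries known, and no test was made.

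The 6 were sarcomere and calcium-store genes. Actn2, the alpha-actinin of the Z-disc, had 3.72 TPM in pool 1 and 1.91 TPM in pool 2. Tnni1, the slow troponin inhibitor subunit, had 8.39 TPM in pool 1 and 4.10 TPM in pool 2. Mybph, a myosin-binding protein, had 2.76 TPM in pool 1 and 0.99 TPM in pool 2. Klhl41, which stabilises sarcomeres, had 1.54 TPM in pool 1 and 0.57 TPM in pool 2. Casq2, a calcium buffer of the sarcoplasmic reticulum, had 1.56 TPM in pool 1 and 0.52 TPM in pool 2, and Sln, an inhibitor of its calcium pump, had 4.41 TPM in pool 1 and 2.21 TPM in pool 2. Their log2 ratios ran from 0.59 to 0.81. Actn2 and Klhl41, each at 0.59, were just inside the threshold, and Mymk and Tnnt1, each at 0.58, just outside it. Mymk, the myoblast fusion protein myomaker, had 2.73 TPM in pool 1 and 1.31 TPM in pool 2, and the slow troponin Tnnt1 had 20.58 TPM in pool 1 and 12.37 TPM in pool 2.

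Other abundant sarcomere, energy and membrane genes were not called in either direction, and several lay near the median gene, as Ttn did. Mylpf, the fast regulatory light chain and a marker of skeletal muscle, had 17.45 TPM in pool 1 and 16.12 TPM in pool 2, a log2 ratio of 0.00. The tropomyosins Tpm1 and Tpm2, which other cells also make, had 243.3 and 47.8 TPM in pool 1 and 265.4 and 46.1 TPM in pool 2. Eno3, the muscle enolase, had 17.49 TPM in pool 1 and 17.90 TPM in pool 2. Pgam2, a muscle glycolytic enzyme, had 6.38 TPM in pool 1 and 5.44 TPM in pool 2. Srl, a protein of the sarcoplasmic reticulum, had 19.97 TPM in pool 1 and 14.48 TPM in pool 2. Dmd, whose product dystrophin links the actin cytoskeleton to the membrane and which neurons transcribe too, had 12.55 TPM in pool 1 and 16.24 TPM in pool 2, a log2 ratio of -0.46. Over the lists, 4 of 16 tested sarcomere genes were called higher (median ratio 0.20), as were 2 of 7 for calcium and energy (0.33) and 0 of 6 for fusion, synapse and membrane (0.35). The count for fusion, synapse and membrane depended on the scale: it was 4 with a pseudocount of 0.1, with TMM and with DESeq2 size factors, where the list's median ratio was 0.71, 0.73 and 0.75, and 2 in TPM over protein-coding genes.

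Upstream factors of the muscle lineage had 0 calls in either direction on this scale. The head muscle precursor list had 2 with a pseudocount of 0.1, in TPM over protein-coding genes, with TMM and with DESeq2 size factors. The list that holds the Eya and Pax genes had 1 with DESeq2 size factors. Of all tested genes, those 4 settings called 461, 309, 460 and 476 higher, in that order, against 243 on this scale. The list of Eya, Pax, migration and other early lineage factors, most of which neural or placodal cells also make, had a median ratio of 0.14 over 9 tested genes. Pax3, which marks muscle precursors and dorsal neural tube, had 36.40 TPM in pool 1 and 33.93 TPM in pool 2. Eya1, a transcriptional cofactor, had 20.10 TPM in pool 1 and 23.89 TPM in pool 2. Among factors of head muscle precursors, Msc had 3.98 TPM in pool 1 and 2.16 TPM in pool 2, with a ratio of 0.55. Tbx1 had 4.80 TPM in pool 1 and 4.45 TPM in pool 2. Of the Mef2 factors, partners of the MyoD family, Mef2a and Mef2d lay at the median gene, with ratios of 0.00 each. Mef2c had 7.76 TPM in pool 1 and 5.77 TPM in pool 2, a ratio of 0.26 and a count ratio of 1.28 (1.17 to 1.41). Myf6, the remaining member of that family, had 3 reads in pool 1 and 0 in pool 2. The E-protein partners and Id and other inhibitors, made by most cells of the tissue, had a median ratio of 0.04 over 10 genes. The highest of these were Id3, at 341.4 TPM in pool 1 and 332.6 TPM in pool 2, and Id2, at 286.2 TPM in pool 1 and 258.7 TPM in pool 2.

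**Figure D4:**
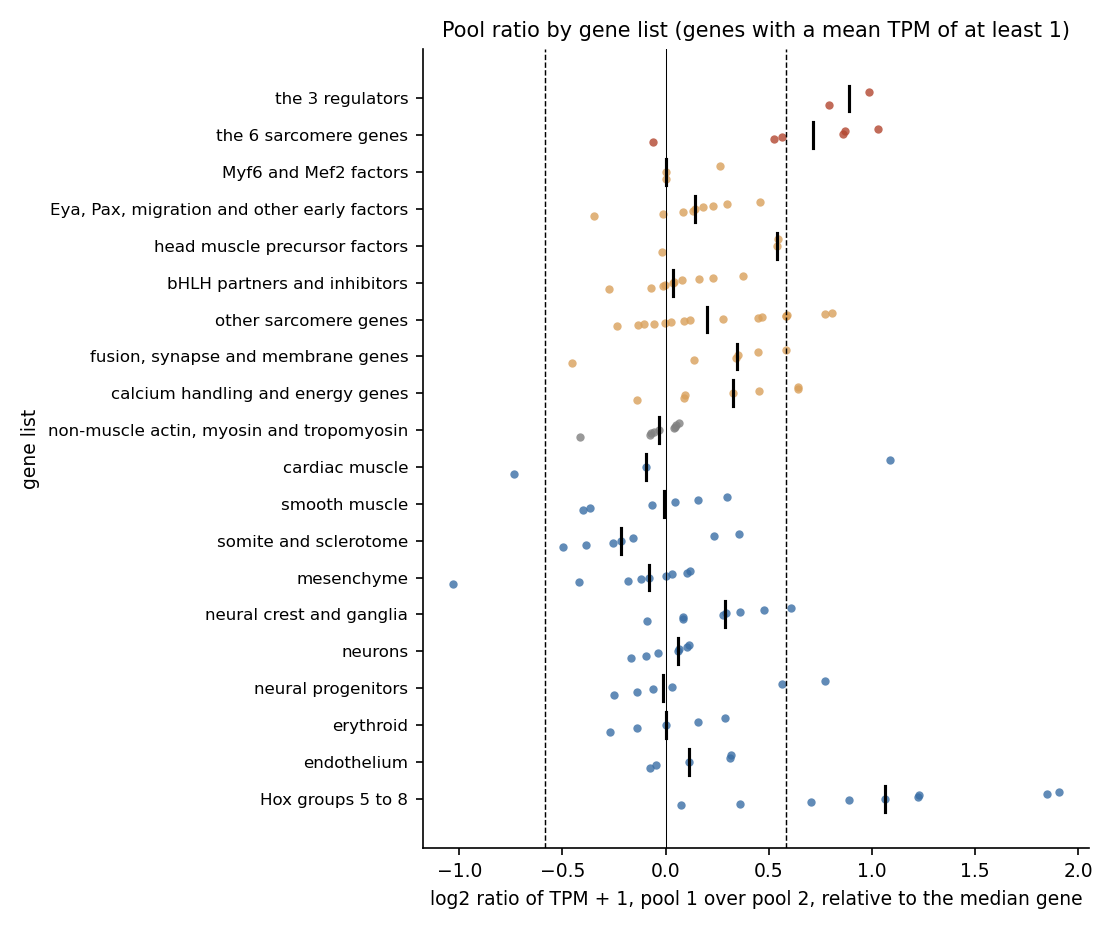
Pool ratio (log2 of TPM + 1, pool 1 over pool 2, relative to the median gene) of each gene averaging 1 TPM or more, by list, with 1 point for each gene and a black bar at the list's median. Red marks the 9 muscle genes, yellow other muscle lists, grey the non-muscle relatives and blue other cell types, dashed lines mark 1.5-fold, and the Hox genes of groups 5 to 8 have the highest median, 1.06.

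The 9 non-muscle relatives of the sarcomere genes had a median ratio of -0.03 and 0 calls in either direction. Actb, the cytoplasmic beta-actin, had 5399 TPM in pool 1 and 5268 TPM in pool 2, and Actg1 had 2769 TPM in pool 1 and 2484 TPM in pool 2. Tpm4, a cytoskeletal tropomyosin, had 433.6 TPM in pool 1 and 390.5 TPM in pool 2.

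Markers of tissues beside the neural tube were compared for the same pools. The 9 genes taken as markers of skeletal muscle (Myod1, Myog, Myf5, Acta1, Mylpf, Tnnt3, Chrng, Mymk and Cdh15) were all above 0 in both pools. Of these, Myod1, Myog, Myf5 and Acta1 are among the genes described, so their reads were already known. The smooth muscle markers Acta2, Myh11, Cnn1 and Tagln were also above 0 in both pools. Of the heart markers, Myh6, Myl7, Myl2 and Tnni3 were, while Nkx2-5 and Nppa were not. A level above 0 thus does not set skeletal muscle apart. Of the 13 heart genes, 3 were tested, and the list summed to 6.31 TPM in pool 1 and 5.68 TPM in pool 2. Without Tbx20, which cranial motor neurons make as well, the sums were 4.93 TPM in pool 1 and 3 TPM in pool 2, 1.64 times as much in pool 1. The heart factor Nkx2-5 had 0 reads in both pools. The heart factors Gata4 and Hand1 had 13 and 8 reads in pool 1 and 0 each in pool 2, and Myh6, the cardiac alpha myosin heavy chain, had 23.5 reads in pool 1 and 8.23 in pool 2. With Myl7 these made 4 of the 13 whose counting interval lay above 1, and for 1, Tbx20, it lay below 1. Among the 3 tested heart genes the interval lay above 1 for 1 and below 1 for 1. Over all tested genes it lay above 1 for 27.1% and below 1 for 25.6%. That share leaves out low genes, so the 4 of 13 cannot be set against it. Of the 4, Gata4, Hand1 and Myh6 averaged under 1 TPM and were not tested. Myl7, the atrial light chain, was called higher with 1.80 TPM in pool 1 and 0.22 TPM in pool 2, on 26 and 3 reads. Tbx20 was called lower with 1.38 TPM in pool 1 and 2.68 TPM in pool 2. Smooth muscle genes summed to 75.6 TPM in pool 1 and 70.3 TPM in pool 2, with 0 of 6 called and a median ratio of -0.01. The highest was Acta2, the smooth muscle alpha-actin, with 34.00 TPM in pool 1 and 28.11 TPM in pool 2.

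Somite and sclerotome genes summed to 69.8 TPM in pool 1 and 73.0 TPM in pool 2, with 0 of 7 called and a median ratio of -0.22. The mesenchyme list summed to 607 TPM in pool 1 and 583 TPM in pool 2, a median ratio of -0.08 over 9 genes. In it Dcn, which encodes the matrix proteoglycan decorin, was called lower, with 12.04 TPM in pool 1 and 23.70 TPM in pool 2. Endothelial and erythroid lists had median ratios of 0.12 and 0.00, with 0 calls in each. In these lists and the smooth muscle list, 0 genes were called higher in pool 1. Of all tested genes 1.63% were, so for lists this short 0 is near that share. Among the 7 tested somite and sclerotome genes, the counting interval lay above 1 for 2 and below 1 for 5. The shares over all tested genes were 27.1% above and 25.6% below.

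Some lists did lie higher in pool 1 beside the muscle genes. Hox genes of groups 5 to 8, which are made from the hindmost hindbrain and the spinal cord backwards, summed to 135 TPM in pool 1 and 70.9 TPM in pool 2, and 7 of 9 tested were called higher (median ratio 1.06). Hoxa6 had 8.78 TPM in pool 1 and 1.42 TPM in pool 2, and Hoxb6 had 29.11 TPM in pool 1 and 10.97 TPM in pool 2. Neural crest and ganglion genes summed to 162 TPM in pool 1 and 127 TPM in pool 2, a median ratio of 0.29 over 8 genes. Of them Sox10, a crest and glial factor, was called, with 12.67 TPM in pool 1 and 7.31 TPM in pool 2. In the progenitor list Hes5, a Notch target, was called, with 202 TPM in pool 1 and 109 TPM in pool 2, while the list's median ratio was -0.01. The median over 7 neuronal genes was 0.06. The part of any of these cell types in the muscle gene difference was not tested.

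Outside the lists, the protein-coding genes that averaged 5 TPM or more and had a ratio nearest to the median of the 9 (0.79) were Vasp, Rprm, Kmt5a, Npy and Kifc1. Vasp, an actin-filament regulator, had 37.82 TPM in pool 1 and 20.05 TPM in pool 2. Rprm had 40.52 TPM in pool 1 and 20.93 TPM in pool 2, and Kmt5a, a histone methyltransferase, had 60.49 TPM in pool 1 and 32.57 TPM in pool 2. Npy, a neuropeptide, had 10.12 TPM in pool 1 and 5.08 TPM in pool 2, and Kifc1, a kinesin, had 7.54 TPM in pool 1 and 3.67 TPM in pool 2. Likeness was measured on 1 ratio between 2 libraries only.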

How the data were processed

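Total RNA was sequenced from 2 libraries, 1 for each pool. Per the file headers, the authors deposited for each library an expected count, TPM and FPKM for every gene and transcript, and an isoform percent for every transcript. Also deposited were the bounds of an interval around the posterior mean TPM and the posterior SD of the count, used here as a score with no stated level. Per the labels and a readme beside the tables, the build was mm10 and the annotation GENCODE M4. The aligner, quantifier and strand option are not named in the labels or file headers, so: not given in the sources used here. TPM is relative to all table entries, spike-ins included.

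Symbols, biotypes and coordinates (GRCm38, the same build) came from GENCODE M21 by Ensembl identifier, for 42462 of 43346 genes. All 186 listed genes matched. The labels place both libraries in 1 group, so no test between pools was possible. Ratios used a pseudocount of 1 TPM and a mean TPM of at least 1. Counting intervals at 95% were Clopper-Pearson (count ratios) and exact Poisson (counts), and cover counting error only.

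The 9 genes and the 20 lists were chosen with earlier results of these data known. Genes named are the 9, the 3 highest of each other list and its members past 1.5-fold, and the 5 nearest in ratio. Others, such as Tnnt1, Mymk, Gata4, Hand1 and those near the threshold, were chosen after their values were seen, as were transcripts. Some genes of the rule are not reported here. Alternatives were FPKM, a pseudocount of 0.1, TPM over protein-coding genes, TMM (edgeR 4.0.16) and DESeq2 1.42.0 size factors on rounded expected counts, spike-ins as 0, other filters and a 2-fold call. The heart list without Tbx20 was added after the data were seen. The ratio steps were tested on simulated data, with planted changes larger than 1.5-fold in genes above the filter. That check does not cover calls near the threshold or the filter. Software was R 4.3.3, SciPy 1.17.1, pandas 2.3.3, Matplotlib 3.10.9, NumPy 2.4.6 and Python 3.11.15.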

Additional observations from a re-analysis of the deposited data

How the results depend on the processing

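No paired analysis was possible because both libraries belong to 1 group. Of the 9 muscle genes, 5 to 7 were called higher in pool 1 under the other scalings, pseudocount and FPKM, and 1 at a 2-fold threshold. With each library alone their summed TPM was 86.0 in pool 1 and 41.2 in pool 2. Ttn lay near 0 and changed sign: its ratio was -0.06 as reported, -0.05 with a pseudocount of 0.1 and -0.04 in FPKM, against 0.07 with TMM, 0.08 with DESeq2 size factors and 0.48 with spike-ins as 0. Of the other muscle genes, 6 were called. The count was 15 with a pseudocount of 0.1, 3 in FPKM, 11 in TPM over protein-coding genes, 14 with TMM, 15 with DESeq2, 35 with spike-ins as 0, 1 among genes averaging 5 TPM or more and 0 at 2-fold. Their median ratio was 0.68 with spike-ins as 0 and otherwise 0.04 to 0.23. Of all tested genes 243 were called higher. That count was 461 with a pseudocount of 0.1, 460 with TMM, 476 with DESeq2, 375 without a filter, 100 among genes averaging 5 TPM or more, 137 with at least 100 counts, 140 over protein-coding genes, 91 at 2-fold and, in settings added after the data were seen, 102 among genes with as many reads as the 9 and 6121 with spike-ins as 0. The cause of these shifts was not tested. Myf5 and Myod1, with 41 and 40 reads in pool 2, are limited most by depth, and with 1 library a pool no spread between embryos or preparations could be set against any ratio.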

Other observations

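The skeletal myosin heavy chain genes lie side by side on chromosome 11, and most of their TPM was that of the embryonic gene. Myh3 had 3.07 TPM in pool 1 and 1.55 TPM in pool 2, and the perinatal gene Myh8 had 0.43 TPM in pool 1 and 0.27 TPM in pool 2. The adult fast genes Myh1, Myh2 and Myh4 had 0.03, 0.03 and 0.04 TPM in pool 1 and 0.02, 0 and 0 TPM in pool 2, and Myh13 is listed at 0 in both. Myh7, the slow and cardiac heavy chain on chromosome 14, had 0.88 TPM in pool 1 and 0.56 TPM in pool 2.

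Among the subunits of the acetylcholine receptor, Chrng, the fetal gamma subunit, had 44 reads in pool 1 and 21 in pool 2, and Chrne, the adult epsilon subunit, had 0 in both. These genes were chosen after their values were seen.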
